A study of Tribolium castaneum with 17 samples.

Results

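Embryos of *Tribolium castaneum*, the red flour beetle, at 6-11 hr were compared with the carcass of the adult male, which is the body left after the testis was taken out. The 3 libraries of embryos (6-11 hr), S4 to S6, and the 3 of male carcass, S10 to S12, are 6 of the 17 libraries of the study, and all 12302 gene rows of the deposited table were compared. All the beetles were wild type of the strain GA2. Embryos were pooled, 80 to 100 to a library, and had been laid by adults older than the dissected beetles, while a library of adult tissue held 30 beetles, taken 4 days after eclosion. The RNA of all samples was extracted and made into libraries together. Levels in embryos (0-5 hr, S1 to S3), female carcass (the female body without the ovary, S7 to S9), ovary (S13 to S15) and testis (S16, S17) were used to describe the genes that differed.

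An insect egg starts with RNA that the mother made in the ovary, and the first divisions run on this maternal store. The embryo then begins to transcribe its own genome, while part of the maternal RNA is broken down. Embryos at 6-11 hr lie early in this change. They have no working muscle, cuticle, gut or fat body, the tissues that make up most of an adult carcass. The comparison therefore sets an early embryo that still holds maternal RNA against differentiated adult tissue, and the stage, the tissues and the sex all differ between the groups and cannot be told apart. In whole samples, fewer cells of a type and less RNA per cell cannot be told apart either.

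The values are CPM, read counts scaled by the authors to a common library size, and a difference is given on the log2(CPM + 1) scale, embryo minus carcass. Reads in gene rows ran from 20221563 (S6) to 27244356 in embryos (6-11 hr) and from 19416253 (S11) to 22932047 in male carcass, so that 1 read was worth 0.0337 to 0.0595 CPM in these libraries. Library S6 stood apart from S4 and S5. Its Euclidean distance over all genes on the log2 scale was 59.9 to S4 and 62.6 to S5, against 18.1 between S4 and S5, and 51.97 to the nearest library of embryos (0-5 hr). In male carcass, S11 lay 79.9 from S10 and 60.5 from S12, which were 41.7 apart. Distances between an embryo and a carcass library were 271.3 to 318.5. Both libraries were kept in the test.

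The transcriptomes of the embryo and of the male carcass differed at most genes. A gene was called at a difference of 1 or more in size and an adjusted p under 0.01 (limma, Benjamini-Hochberg over all gene rows). By this rule 3452 genes (28.1%) were higher in embryos (6-11 hr) and 4634 (37.7%) were higher in male carcass, which leaves 4216 (34.3%) not called. Of those not called, 1979 had an adjusted p under 0.01 with a difference smaller than 1, and 64 had a difference of 1 or more that missed the p. The median difference over all genes was -0.15. Scaling by library totals alone moved this median to 0.12 and gave 4162 genes higher in embryos and 4252 higher in male carcass, so the balance of the directions depends on the scaling while all of the first 3452 stayed called. Without S6 there were 3432 and 4462 calls, without S11 3474 and 4612, and without both 3440 and 4491.

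**Figure D1:**
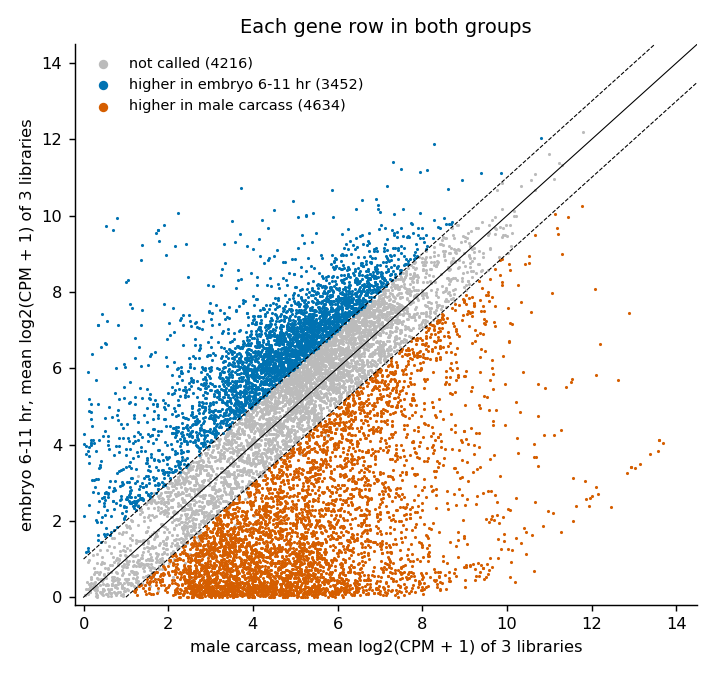
Mean log2(CPM + 1) of each gene row over the 3 libraries of male carcass (x axis) and of embryos at 6-11 hr (y axis), with 1 point per gene row coloured by its call. Dashed lines mark a difference of 1. The 4634 genes higher in male carcass reach down to the x axis, with a median of 1.65 CPM in the embryo. The 3452 genes higher in the embryo lie mostly above 5 CPM in the carcass as well, with a median of 23.3 CPM. Of all rows, 87.7 to 89.2% reached 5 CPM in a single carcass library.

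The 2 directions differed in the level left in the lower group, and the base rates differed too. Of all rows, 87.7 to 89.2% reached 5 CPM in a single carcass library, against 65.1 to 69.02% in a single embryo library. Of the 3452 genes higher in the embryo, 2883 (83.5%) had 5 CPM or more in all 3 carcass libraries. This is near the share of all rows in a single carcass library. A carcass mean under 1 CPM was seen for 139 (4.03%). The median level of the 3452 genes was 90.5 CPM in the embryo and 23.3 CPM in the carcass, and their median difference was 1.74. RNA of genes higher in male carcass was often nearly absent from the embryo. Of the 4634, 1846 (39.8%) had an embryo mean under 1 CPM and 1101 (23.8%) had 5 CPM or more in all 3 embryo libraries. Their median level was 35.2 CPM in the carcass and 1.65 CPM in the embryo, and the median size of the difference was 3.01. A difference of 4 or more was seen for 143 genes in the direction of the embryo and for 1429 in that of the carcass, and one of 8 or more for 3 and 80 genes. The deposited rows had been chosen for their level, and 12152 of the 12302 reached 5 CPM in at least 3 of the 17 libraries, so that most rows low in one group had to be higher in another.

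The called genes of each direction took more of the RNA in their own group than in the other, which follows from how they were called. The genes higher in the embryo were 28.1% of all rows, and those higher in male carcass were 37.7%. The 3452 genes higher in the embryo took 52.8 to 56.3% of all CPM in S4 to S6 and 10.9 to 11.6% in S10 to S12. The 4634 genes higher in the carcass took 59.8 to 60.9% in S10 to S12 and 5.77 to 7.48% in S4 to S6. Single genes weighed more in the carcass, where the 10 most abundant took 7.21 to 10.6% of the CPM, against 3.34 to 3.44% in the embryo. More gene rows reached 5 CPM in the carcass, 87.7 to 89.2% of them, than in the embryo, with 65.1 to 69.02%.

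Levels in the other libraries show where else RNA of these genes was present. Of the genes higher in the embryo, 2560 (74.2%, against 29.6% of all rows) had the highest of the other 4 group means in embryos (0-5 hr), 709 in testis, 179 in ovary and 4 in female carcass. Their median was 84.8 CPM in embryos (0-5 hr), 49.9 CPM in ovary, 44.4 CPM in testis and 24.1 CPM in female carcass. Nearly all of them were present before and at the start of development, as 3239 (93.8%, against 62.3% of all rows) reached 5 CPM in each library of ovary and of embryos (0-5 hr). Of the genes higher in male carcass, 3195 (68.9%, against 33.4% of all rows) had the highest of the other means in female carcass and 1173 (25.3%, against 27.5%) in testis. Their median was 30.7 CPM in female carcass and 0.867 CPM in embryos (0-5 hr). Among all 6 groups, 1980 of the genes higher in the embryo peaked in embryos (6-11 hr) themselves, and 775 in embryos (0-5 hr). Of the genes higher in male carcass, 1235 peaked there, fewer than the 2124 that peaked in female carcass. Another 1044 had their highest mean in testis. The calls favour a peak in the group where a gene was higher, so these counts are a description.

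Gene lists were built from the 11 libraries that do not enter the comparison, since the files pair almost no gene with a function. The folds that set them were taken between group means on the log2(CPM + 1) scale. The maternal list holds 38 genes that reached 20 CPM in each library of ovary and of embryos (0-5 hr) and were at least 8-fold higher there than in female carcass and testis. All 38 were higher in embryos (6-11 hr) than in male carcass, where 28.1% of all rows were, and their median difference was 6.55. Their summed level was 19926 to 20198 CPM in S4 to S6 and 199 to 223 CPM in S10 to S12, beside 19674 to 19938 CPM in embryos (0-5 hr) and 208 to 789 CPM in female carcass. The ranges at 6-11 hr and at 0-5 hr overlapped. The 3 most abundant genes of the list by their level in the other libraries were TC031216, TC003005 and TC032552. TC031216 was at 1750.3, 1625 and 1686 CPM in the embryo and at 14.6, 12.8 and 9.57 CPM in the carcass (difference 7.003, SE 0.55, limma adjusted p = 1.85e-08), and stood at 1883 ± 177 CPM (SD, n = 3) in embryos (0-5 hr). TC032552 was at 515, 533 and 445 CPM in the embryo and at 3.16, 3.27 and 2.25 CPM in the carcass (difference 7.01, SE 0.69). Its level was below that of embryos (0-5 hr), where the mean was 1532 ± 136 CPM (SD, n = 3). TC003005 differed by 4.82. With the list widened to 4-fold, all of its 72 genes were higher in the embryo. Both versions were chosen to be higher in embryos (0-5 hr) than in female carcass. Across all genes that difference had a Pearson r of 0.915 with the one tested here, so these counts are a description.

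The adult body list holds 134 genes at 20 CPM or more in every female carcass library and at least 16-fold higher there than in ovary, testis and embryos (0-5 hr). All 134 were higher in male carcass, where 37.7% of all rows were, with a median difference of -6.20. The list was chosen to be lower in embryos (0-5 hr) than in female carcass, so this count too is a description. The summed level of the list was 132275 to 199965 CPM in male carcass. In the embryo it was 949 CPM in S4, 1099 CPM in S5 and 390 CPM in S6, so S6 was again the low one, and the median gene of the list stood at 0.411%, 0.482% and 0.129% of its male carcass mean in S4, S5 and S6. The low levels in the embryo also differed between libraries: S6 was the lowest of the 3 for 115 of the 134 genes, and among embryos (0-5 hr) S2 was the highest for 119. The same shares over all rows are not given here, so these orders may not be particular to the list. Whether other material adds to these few reads was not tested.

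Most genes of the ovary list were not called. It holds 41 genes that reached 20 CPM in each ovary library and were at least 8-fold higher there than in testis, female carcass and embryos (0-5 hr), of which 3 were higher in the embryo, 7 were higher in male carcass and 31 were not called (median -0.76), which is 7.32%, 17.1% and 75.6% of the list against 28.1%, 37.7% and 34.3% of all rows. TC003110, with an ovary mean of 3100 CPM, was at 4.50, 3.95 and 0.697 CPM in the embryo and at 21.7, 14.4 and 9.93 CPM in the carcass. Its groups did not overlap, but the difference of -2.12 (SE 0.75, limma adjusted p = 0.0164) missed the p for a call, as did TC015344 with -1.55 (limma adjusted p = 0.0668) and TC008930 with -1.81 (limma adjusted p = 0.0269). DESeq2, edgeR's likelihood ratio test and limma with only the groups compared called TC003110 and TC008930 higher in male carcass. The steady list, 1150 genes within 2-fold between ovary, testis, female carcass and embryos (0-5 hr), gave 139 genes higher in the embryo, 55 higher in male carcass and 956 not called. These first shares are 12.1% and 4.78%, against 28.1% and 37.7% of all rows, with a median of 0.38 where the median of all rows was -0.15.

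The testis list holds 584 genes at 20 CPM or more in both testis libraries and at least 16-fold higher there than in ovary, female carcass and embryos (0-5 hr). In mean CPM 17 of them fell short of this fold, down to 4.49-fold. Of the 584 genes 522 (89.4%, against 37.7% of all rows) were higher in male carcass than in embryos (6-11 hr), 2 (0.342%, against 28.1%) were higher in the embryo and 60 were not called, with a median difference of -2.97. Although the carcass was collected without the testis, the list summed to 11206 CPM in S10, 48650 CPM in S11 and 20182 CPM in S12, against 1535 to 1716 CPM in S4 to S6, 1731 to 1990 CPM in female carcass and 294437 to 423857 CPM in testis. The median gene of the list stood at 2.22% of its testis mean in S10, 5.64% in S11 and 4.46% in S12, and at 0.0929 to 0.141% in the embryo libraries. Without S11 86.6% of the list was higher in male carcass. The part of testis RNA in these calls was not tested. Leaving the list out left 4112 genes higher in male carcass.

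**Figure D2:**
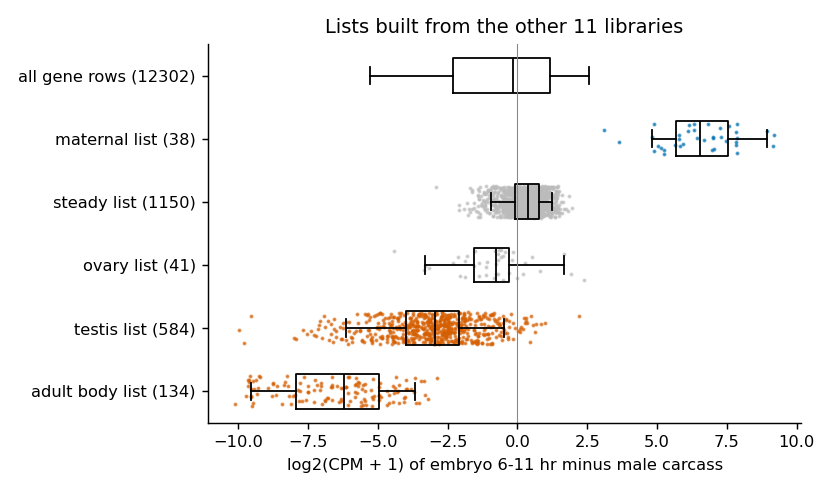
Difference in log2(CPM + 1), embryo (6-11 hr) minus male carcass (x axis), for all gene rows and for 5 lists built from the other 11 libraries, with the number of genes in brackets. Points are genes (not drawn for all rows), boxes span the quartiles with the median, and whiskers run from the 5th to the 95th percentile. The medians are 6.55 for the maternal list, 0.38 for the steady list, -0.76 for the ovary list, -2.97 for the testis list and -6.20 for the adult body list.

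The testis list was not uniform in the male carcass. For 559 of its genes the male carcass mean was below the testis mean, and the median gene was 2.57-fold higher in S11 than in S10 and 1.30-fold higher in S11 than in S12. The other 25 genes had a higher mean in male carcass than in testis and all 25 were called higher in male carcass. They summed to 2565 CPM in S10, 20784 CPM in S11 and 3749 CPM in S12, beside 4231 and 5805 CPM in the testis libraries and 5.11 to 7.89 CPM in the embryo. Here the median gene was 11.1-fold higher in S11 than in S10 and 6.32-fold higher in S11 than in S12. One ovary library also stood apart for them, since S13 was the highest of the 3 for all 25, with a sum of 1137 CPM against 20.4 CPM in S14 and 37.6 CPM in S15. These 25 genes were picked by their male carcass mean, which a high S11 raises, so their calls and their folds in S11 are a description.

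The genes that the study annotated by their *Drosophila melanogaster* homologs were taken by role. Of 21 such genes, 4 were higher in embryos (6-11 hr), 14 were higher in male carcass and 3 were not called, where 28.1%, 37.7% and 34.3% of all rows were. The study chose them in part on these libraries, so that their count is a description. Their roles in the text are those known in the fly.

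Early zygotic genes are those that the embryo transcribes itself. Of 6 genes that the study placed in this role, 1 was higher in the embryo and 5 were higher in male carcass. TC005375, a homolog of *Larval serum protein 2*, which in the fly encodes a storage protein of the fat body, was at 78.4, 82.6 and 6.79 CPM in S4, S5 and S6 and at 0.584, 3.09 and 1.74 CPM in S10, S11 and S12. All 3 embryo libraries lay above the carcass libraries, but S6 was far below S4 and S5. The difference was 3.84 (SE 0.78, limma adjusted p = 0.000319) and rose to 4.96 without S6, and the mean in embryos (0-5 hr) was 0.0193 ± 0.0168 CPM (SD, n = 3).

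TC015380, whose fly homolog the study names by number only, was at 7.12, 8.16 and 1.39 CPM in the embryo and at 28.5, 15.5 and 31.1 CPM in the carcass (difference -2.15, SE 0.42, limma adjusted p = 0.000199), and the difference was -1.53 without S6. It was thus higher in the adult body although its level in embryos (0-5 hr) was only 0.264 ± 0.0792 CPM (SD, n = 3). TC008514 was at 29.6, 30.96 and 25.7 CPM in the embryo and at 296, 297 and 451 CPM in the carcass, a difference of -3.53 (SE 0.17, limma adjusted p = 4.22e-11). Its mean was 24.7 CPM at 0-5 hr and 28.7 CPM at 6-11 hr, and the libraries of these stages overlapped. TC009052 differed by -3.88 and TC033031 by -2.92, with all embryo libraries below all carcass libraries in each. From 0-5 to 6-11 hr the mean of TC009052 went from 3.17 to 3.22 CPM, again with overlap. That of TC033031 went from 0.146 to 0.437 CPM. TC030997 was at 7.71, 6.78 and 1.53 CPM in the embryo and at 17.8, 11.9 and 14.02 CPM in the carcass. Its mean in embryos (0-5 hr) was 1.31 CPM. Its call (difference -1.47, limma adjusted p = 0.00084) was lost without S6, where the difference was -0.90. The call was also lost with 5 added to each CPM, with -0.97, and with only the groups compared.

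Of 3 maternal and patterning genes, 1 was called. TC032769, the homolog of *caudal*, a homeobox gene that patterns the posterior of the embryo, was at 151, 151 and 118 CPM in the embryo and at 12.6, 40.8 and 13.05 CPM in the carcass. The groups did not overlap, and S11 stood above the other carcass libraries. The difference was 2.81 (SE 0.35, limma adjusted p = 2.01e-06) and 3.34 without S11, and the mean was 128 ± 4.16 CPM (SD, n = 3) in embryos (0-5 hr) and 11.6 ± 1.59 CPM (SD, n = 3) in female carcass.

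TC003185, the homolog of *myd88*, an adaptor of the Toll pathway that sets the dorsal-ventral axis, was at 79.5, 77.8 and 83.4 CPM in the embryo and at 55.05, 59.2 and 55.5 CPM in the carcass. The difference of 0.50 had an adjusted p of 0.000642 (limma) but was below the size for a call. TC015003, the homolog of *meiotic P26*, a gene of germ cell differentiation, was at 5.69, 6.00 and 2.28 CPM in the embryo and at 10.1, 4.52 and 8.44 CPM in the carcass, and the groups overlapped (difference -0.64, limma adjusted p = 0.0539).

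Genes that serve oogenesis and the cell cycle in the fly went both ways. TC001383, the homolog of *fizzy*, which activates the anaphase-promoting complex, was at 390.4, 384 and 545 CPM in the embryo and at 7.88, 9.82 and 9.72 CPM in the carcass, a 48.1-fold difference of the means. On the log2 scale it was 5.43 (SE 0.30, limma adjusted p = 2.29e-10). TC034053, the homolog of meiosis arrest female protein 1, was at 1101, 1065 and 850.5 CPM in the embryo and at 35.1, 30.5 and 32.03 CPM in the carcass (difference 4.90, SE 0.26, limma adjusted p = 8.99e-11). Both stood as high in embryos (0-5 hr), with 464 ± 25.1 CPM (SD, n = 3) for TC001383 and 1250.0 ± 43.01 CPM (SD, n = 3) for TC034053.

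In the other direction, TC013108, the homolog of *quail*, a villin-like actin-bundling protein of the nurse cells, was at 7.15, 6.75 and 4.65 CPM in the embryo and at 42.5, 37.1 and 36.8 CPM in the carcass (difference -2.49, SE 0.15, limma adjusted p = 5.02e-10). TC009818, the homolog of *loco*, a regulator of G-protein signalling, was at 75.05, 75.5 and 49.5 CPM in the embryo and at 165, 128 and 145 CPM in the carcass. Its call (difference -1.14, limma adjusted p = 2.96e-06) was lost without S6, with a difference of -0.94, and with scaling by library totals, with -0.84.

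**Figure D3:**
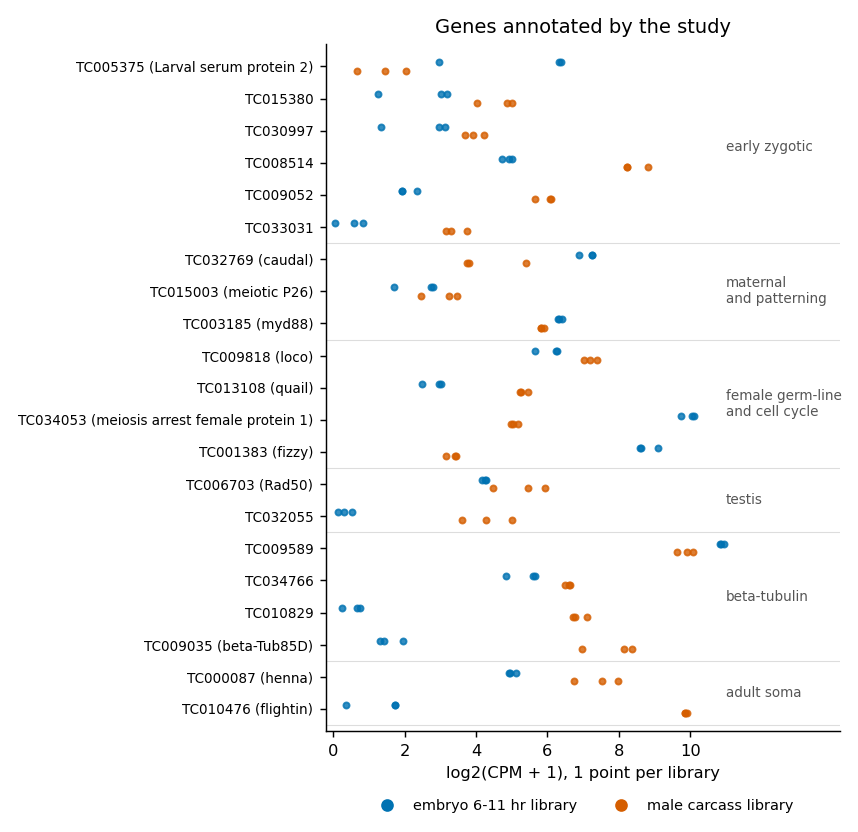
Level of the 21 genes taken from those annotated by the study in each library of embryos at 6-11 hr and of male carcass (x axis, log2(CPM + 1)), 1 point per library, grouped by role. Of these genes, 4 were called higher in the embryo and 14 higher in male carcass, with *flightin* at a difference of -8.60 and *fizzy* at 5.43.

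Both genes given as testis genes, which are also in the testis list, were called higher in the carcass. TC032055 was at 0.244, 0.438 and 0.0930 CPM in the embryo and at 11.2, 31.5 and 18.6 CPM in the carcass, where S11 was again the highest library, and its testis mean was 988 CPM (difference -3.99, SE 0.36, limma adjusted p = 4.78e-08). TC006703, the homolog of *Rad50*, a protein of DNA double-strand break repair, was at 17.9, 18.5 and 16.8 CPM in the embryo and at 21.5, 59.7 and 42.8 CPM in the carcass, with a testis mean of 932 CPM. Its call (difference -1.06, limma adjusted p = 0.00388) was lost without S11, where the difference was -0.74, without S12, with -0.98, and without S4 or S6, with -1.07 and -1.03. The call was also lost with library totals, with -0.77, with 0.1 or 5 added to each CPM and with only the groups compared.

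The 4 beta-tubulins, subunits of microtubules, differed among themselves. TC009589 was abundant in both groups, at 1839, 1948 and 1802 CPM in the embryo and at 1076, 795 and 960.3 CPM in the carcass. Its difference of 0.99 (limma adjusted p = 2.25e-06) was just below the size for a call. It was called without S10, with 1.09, without S6 or S12, with 1.01 each, and with library totals, with 1.29. TC010829 was nearly absent from the embryo, at 0.593, 0.675 and 0.186 CPM, and was at 104, 137 and 108 CPM in the carcass (difference -6.31, SE 0.33, limma adjusted p = 1.07e-10). Female carcass held it at 105 ± 22.04 CPM (SD, n = 3) as well.

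TC009035, the homolog of the testis tubulin *beta-Tub85D*, was at 1.71, 2.90 and 1.49 CPM in the embryo and at 124, 329 and 282 CPM in male carcass, while female carcass held 2.26 ± 1.32 CPM (SD, n = 3) and the testis mean was 4569 CPM. The difference of -6.25 (SE 0.46, limma adjusted p = 3.95e-09) was close in size to that of TC010829. Between embryos (0-5 hr) and female carcass TC009035 differed by -0.54 only, and the difference of the 2 differences was -5.71 (SE 0.65, limma adjusted p = 4.16e-05). TC034766 was at 47.3, 48.9 and 27.4 CPM in the embryo and at 97.4, 89.3 and 96.97 CPM in the carcass, and its call (difference -1.22, limma adjusted p = 6.25e-05) was lost without S6, with -0.96, and with library totals, with -0.93.

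The adult soma genes were both higher in male carcass. TC010476, the homolog of *flightin*, a protein of the thick filaments of flight muscle, was at 2.34, 2.29 and 0.279 CPM in the embryo and at 917, 951 and 929 CPM in the carcass, a 570-fold difference of the means. The difference of -8.60 (SE 0.41, limma adjusted p = 3.97e-11) was the largest of the annotated genes. TC000087, the homolog of *henna*, phenylalanine hydroxylase, which also serves the pteridine eye pigments, was at 29.3, 30.02 and 33.6 CPM in the embryo and at 185, 106 and 249.8 CPM in the carcass (difference -2.42, SE 0.20, limma adjusted p = 1.83e-08).

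Among all genes, the largest differences in the direction of the embryo belonged to genes of the maternal list. All of the 10 genes with the largest difference are in it, at 546 to 1241 CPM in S4 to S6 and 0.238 to 5.597 CPM in S10 to S12, and their means were 528 to 816 CPM in embryos (0-5 hr) and 105 to 253 CPM in ovary. TC005531 led them, with 808, 903 and 823 CPM in the embryo and 0.973, 0.238 and 0.256 CPM in the carcass, a difference of 9.18 (SE 0.48, limma adjusted p = 1.83e-10). TC033120 was at 956, 968 and 1033 CPM in the embryo and at 0.827, 0.535 and 0.819 CPM in the carcass, and differed by 9.16. TC013460 differed by 8.92. None of these 3 identifiers is annotated in the files or by the study. TC034977 and TC034494, which differed by 7.87 each, hold the same counts in every library and count as 1 measurement. The others of the 10 are TC008901, TC004775, TC007081, TC015076 and TC034951, with differences of 7.57 to 7.86.

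The genes of highest CPM among those called higher in the embryo differed less. CPM are not divided by gene length, so this order is one of reads and not of transcripts. TC031639 was at 4114, 4061 and 4501 CPM in the embryo and at 1976, 1682 and 1723 CPM in the carcass, and differed by only 1.24 (SE 0.10, limma adjusted p = 1.52e-08). TC005857 was at 3569, 3362 and 4369.7 CPM in the embryo and at 365, 272 and 301 CPM in the carcass (difference 3.59). TC010381 was at 2689, 2660.1 and 2848 CPM in the embryo and at 169.6, 154 and 149.5 CPM in the carcass (difference 4.11). All 3 are abundant transcripts of the ovary too, with means of 1774, 1390 and 710.1 CPM in TC031639, TC005857 and TC010381. TC009106 and TC007938 differed by 3.70 and 3.08.

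The largest differences in the direction of male carcass, outside the testis list, belonged mostly to genes of the adult body list. The 10 genes were at 2038 to 16528 CPM in S10 to S12 and at 0.930 to 31.6 CPM in S4 to S6, and 9 of them are in the adult body list. TC011000 was at 5.51, 7.15 and 1.53 CPM in the embryo and at 4770.1, 7253 and 5148 CPM in the carcass, a difference of -10.10 (SE 0.88, limma adjusted p = 6.12e-08), the largest in size of all gene rows. TC007240 was at 17.4, 27.4 and 4.60 CPM in the embryo and at 12861, 10180.2 and 13410.1 CPM in the carcass (difference -9.72). TC032856 was at 19.99, 31.6 and 5.44 CPM in the embryo and at 16528, 9895 and 14105 CPM in the carcass (difference -9.66). Without S6 the differences of TC007240 and TC032856 were -9.05 and -8.98. In the embryo all 10 genes followed the same order, with S5 the highest and S6 the lowest, and they stood at 0.0963 to 0.174% of their male carcass mean in S4, 0.125 to 0.251% in S5 and 0.0263 to 0.0520% in S6. The others of the 10 are TC008230, TC007241, TC009959, TC011410, TC001049, TC033810 and TC008681. TC033170 and TC034699, which share nearly all their counts, are with TC007240, TC032856 and TC007241 the most abundant genes called higher in male carcass.

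Within the testis list the largest differences came with one high library. TC011481 was at 0.384, 1.08 and 0.418 CPM in the embryo and at 604, 6766 and 1004 CPM in the carcass, beside a testis mean of 1507 CPM, so S11 held more of it than testis did. The difference was -9.97 with an SE of 1.32 (limma adjusted p = 5.51e-06), and -8.93 without S11. TC006088 was at 0.419, 1.01 and 0.0465 CPM in the embryo and at 377, 4478 and 750.2 CPM in the carcass (difference -9.56, and -8.53 without S11). TC008234 was at 0.314, 0.607 and 0.0930 CPM in the embryo and at 783, 2316 and 877 CPM in the carcass (difference -9.79). In each of them S11 was the highest carcass library and the groups were far apart, and TC031448 and TC003976 showed the same order with differences of -8.001 and -7.91, which were -7.005 and -6.98 without S11. By contrast, the most abundant testis transcripts of the list were below their testis level in every carcass library. TC015787 was at 14.8, 14.3 and 13.9 CPM in the embryo and at 165, 530.2 and 307 CPM in the carcass, beside a testis mean of 12623 CPM (difference -4.29), and TC001175 and TC006027 differed by -6.93 and -7.23.

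Some called genes had no read at all in one group. For 18 genes higher in male carcass no embryo library (6-11 hr) held a read, while for 3 genes higher in the embryo no male carcass library held one. Of the 18, 7 are in the testis list, which holds 522 of all 4634 genes higher in male carcass. A count of 0 allows up to 3 reads, here over the group, which is 0.0376 CPM in the embryo and 0.0527 CPM in the carcass, for counting error only. Against this floor TC006091, at 21.8, 248 and 38.8 CPM in the carcass, was at least 2741-fold higher there, TC006089 at least 2243-fold and TC001011 at least 1524-fold. Without S11 these bounds were 806-fold, 757-fold and 399.8-fold. S11 was the highest carcass library for 14 of the 18 genes, and the same share over all rows is not given here. TC000921, at 22.2, 21.6 and 12.7 CPM in the embryo, was at least 357-fold higher in the embryo, TC007675 at least 309-fold and TC004172 at least 65.5-fold.

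A small group of genes higher in the embryo was much lower at the 0-5 hr stage, where their means ran from 0.0193 to 6.91 CPM. In 22 of the 3452 genes the mean on the log2(CPM + 1) scale was at least 4-fold higher in embryos (6-11 hr) than in embryos (0-5 hr), and 62 genes higher in male carcass met the same condition. The 6-11 hr libraries chose these 22 genes, so their differences are a description. The 0-5 hr libraries S1, S2 and S3 also differed for some of them. TC004340 was at 10.5, 0.177 and 10.02 CPM there and TC013428 at 4.43, 0.0295 and 4.58 CPM, while TC011658 was at 1.47, 1.68 and 1.31 CPM. The highest level of any of the 22 genes was 10.5 CPM in S1, 2.57 CPM in S2 and 10.02 CPM in S3. TC005375, described above, had the largest rise over 0-5 hr. TC014688 was at 54.99, 68.03 and 5.58 CPM in embryos (6-11 hr), 0.0487, 0.119 and 0.102 CPM in male carcass and 0.277 ± 0.104 CPM (SD, n = 3) in embryos (0-5 hr). TC010421 was at 53.4, 57.8 and 4.65 CPM in embryos (6-11 hr) and 0.633, 0.476 and 0.665 CPM in male carcass. TC003085 was at 48.8, 53.4 and 8.88 CPM in embryos (6-11 hr) and 0.535, 1.01 and 0.768 CPM in male carcass. These 3 were near 1 CPM or below in the adult male and high in S4 and S5. TC011658 was at 74.7, 76.9 and 7.67 CPM in embryos (6-11 hr) and 1.51, 0.476 and 0.972 CPM in male carcass.

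The level of these genes differed between the 6-11 hr libraries themselves. S6 was the lowest of the 3 in 22 of 22 genes, at a median of 36.98% of the mean of S4 and S5 (range 8.36 to 71.9%), whereas over all genes higher in the embryo this median was 108.2%. Of the 22, 13 were at 1 CPM or less in all 3 male carcass libraries and 10 had a mean under 1 CPM in embryos (0-5 hr). A difference of 4 or more against male carcass was seen for 9 of them, and for 12 without S6. The part that the age of the embryos within the window may have in this was not tested.

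**Figure D4:**
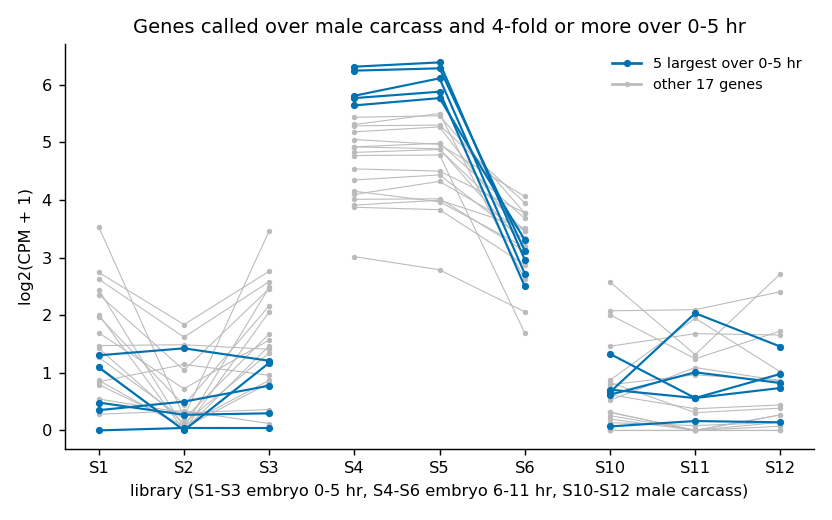
Level of the 22 genes called higher in embryos (6-11 hr) than in male carcass that were also at least 4-fold higher than in embryos (0-5 hr), by library (x axis) on the log2(CPM + 1) scale (y axis). Lines join the libraries of a group for 1 gene and carry no order in time, and the 5 genes with the largest difference from 0-5 hr are in blue. S6 is the lowest 6-11 hr library for all 22 genes.

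Genes of high and similar level in both groups were also present. The 5 most abundant genes with a difference under 0.25 in size were TC006296, TC008784, TC009978, TC002415 and TC010830. TC008784 was at 2626, 2577 and 2558 CPM in the embryo and at 2382, 2592 and 2567 CPM in the carcass (difference 0.04, SE 0.10, limma adjusted p = 0.703). TC006296 was at 2629.9, 2659 and 2761 CPM in the embryo and at 2117, 2935 and 2208 CPM in the carcass (difference 0.16, SE 0.10). The groups overlapped in both. Not every gene that was steady in the other libraries stayed so: TC013925, of the steady list, was at 1076, 1109 and 962 CPM in the embryo and at 2449, 2076 and 2242 CPM in the carcass and was called higher in male carcass (difference -1.10, limma adjusted p = 3.46e-08), though not with library totals, where the difference was -0.80.

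Embryos (0-5 hr) were compared with female carcass in the same way, which uses no library of the 6-11 hr embryo or the male carcass. Here 3180 genes (25.8%) were higher in the embryo and 4440 (36.1%) higher in the carcass by the same rule. Both comparisons come from one model with a common estimate of the spread. Of the 3452 genes higher in embryos (6-11 hr), 2828 were also higher in embryos (0-5 hr) than in female carcass, 81.9% of the first list and 88.9% of the second. Of the 4634 higher in male carcass, 3911 were also higher in female carcass, 84.4% of the first list and 88.1% of the second. Across all 12302 genes, which are not independent replicates, the differences had a Pearson r of 0.915. Only 19 genes were called in both comparisons with opposite signs, 18 of them higher in male carcass yet lower in female carcass than in the embryo. Of these 18, 15 are in the testis list, which holds 522 of all 4634 genes higher in male carcass. *Rad50* (TC006703) is one of the 15, with a difference of -1.06 against male carcass and 3.06 between embryos (0-5 hr) and female carcass. Its mean in female carcass was 1.01 ± 0.733 CPM (SD, n = 3). The call against male carcass was not stable, as it was lost without S4, S6, S11 or S12 and with library totals (-0.77).

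The 2 differences were then compared with each other gene by gene. The value equals the change in embryos from 0-5 to 6-11 hr minus the difference of male minus female carcass. The contrast alone does not separate the stage of the embryo from the sex of the carcass, while the group means show each part. TC009035 had means of 1.14 and 2.03 CPM in embryos at 0-5 and 6-11 hr. In female and male carcass they were 2.26 and 245 CPM. For TC014688 the means were 0.277 and 42.9 CPM in these embryos and 0.212 and 0.0900 CPM in female and male carcass. The difference of the differences was called for 1001 genes (8.14%; limma, a size of 1 or more and an adjusted p under 0.01), 278 with a positive and 723 with a negative value. Of the 723, 440 (60.9%) are in the testis list, which is 75.3% of that list. The list was chosen to be far lower in female carcass and in embryos (0-5 hr) than in testis. Its second difference had a median size of 0.46, and 132 of its genes were called in that comparison. The split of directions depends on the method, since 27.8% of the calls were positive in the main test, 9.90% with library totals and 55.1% when recovered reads were tested with edgeR (quasi-likelihood), with 597 positive and 486 negative. Without S6 the test called 1585 genes, 909 of them positive.

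**Figure D5:**
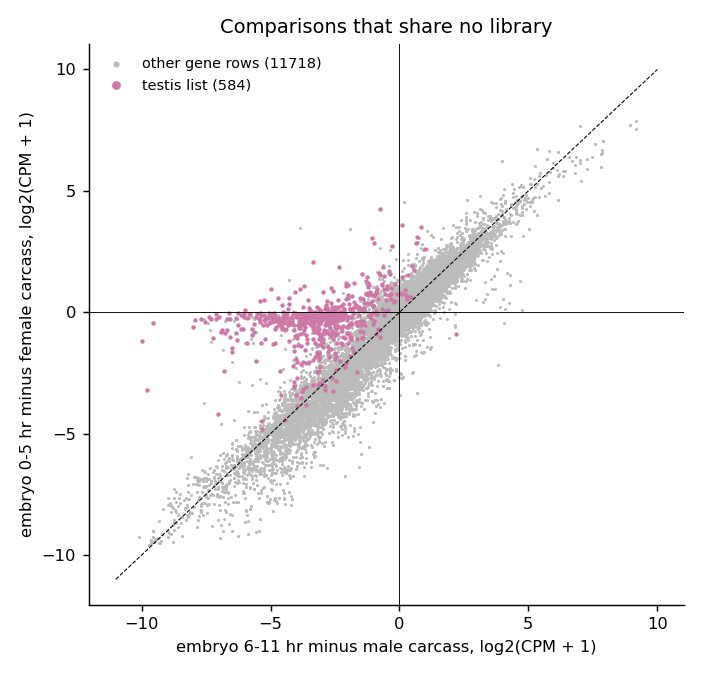
Difference in log2(CPM + 1) of embryos (6-11 hr) minus male carcass (x axis) against embryos (0-5 hr) minus female carcass (y axis), 1 point per gene row, with the 584 genes of the testis list in purple and the dashed line at equal differences. Across all 12302 rows Pearson r was 0.915, and 440 of the testis list, chosen to be lower in both groups of the y axis than in testis, were called with a first difference below the second and lie to the left of the line.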

How the data were processed

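Poly(A) RNA of 17 libraries in 6 groups was sequenced. The authors used HISAT2 2.0.5 for alignment and BEDTools for counting, per the labels and the study's methods, and normalized the libraries in edgeR by TMM. The deposited signal values are the resulting CPM, for 12302 gene rows that the study kept for their level. Of these rows 7 had no TC identifier and 13 identifiers stood on 2 rows. Whether the counting used strand is not given in the sources used here. To recover counts, the deposited values were divided by the value of 1 read in each library, and 100% of the 209134 results were whole within 0.01 read. Reads per library ran from 18664366 to 34847471, and limits drawn from them cover the error of counting only.

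All 17 libraries entered 1 group-means model in limma 3.58.1 (R 4.3.3). The values were log2(CPM + 1), the variance was moderated with a trend and robustly, and p-values were adjusted over all 12302 rows (Benjamini-Hochberg). This scale understates the change of low genes. P-values measure the spread between libraries, which the study describes as independent biological replicates. The test was checked on simulated reads. The members, lists and tests were chosen with earlier results of these data known.

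The genes named are 21 identifiers the study annotates (another is not reported here), the 10 largest differences each way with no overlap between groups (5 more in the testis list), the 5 of highest level each way, the 5 with the largest rise over 0-5 hr, the 5 most abundant under 0.25, the 3 most abundant of each list and the 3 highest with no read in the other group. Alternatives were tests of the recovered reads with edgeR 4.0.16 and DESeq2 1.42.0, scaling by RLE factors or library totals, 0.1 or 5 added to each CPM, genes at 5 CPM in 3 libraries, only the groups compared, other thresholds and leaving out each library. Leaving out S6 and S11 together, and the lists without them, were chosen after the data were seen. No sequence or gene position is printed, since the reference table used here matched 1 of 12282 TC identifiers. Summaries and figures used Python 3.11.15, pandas 2.3.3 and matplotlib 3.10.9.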

Additional observations from a re-analysis of the deposited data

Results flagged for a closer look

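For 22 of the named genes the difference between embryos (6-11 hr) and male carcass differed from that between embryos (0-5 hr) and female carcass, by a test of the difference itself (limma, adjusted p under 0.01 and a size of 1 or more on the log2(CPM + 1) scale). The value in brackets is the first difference minus the second. It equals the change in embryos from 0-5 to 6-11 hr minus the difference of male minus female carcass. By itself it does not separate these parts. The testis list, chosen to be far lower in female carcass and in embryos (0-5 hr) than in testis, gave TC006088 (-9.12), TC011481 (-8.80), TC003976 (-7.59), TC031448 (-7.40), TC006027 (-6.16), TC001175 (-6.11), TC006089 (-5.71), TC009035 (-5.71), TC006091 (-5.71), TC001011 (-4.90), TC015787 (-4.88), TC006703 (-4.12) and TC032055 (-3.05). Positive values were seen for the quail homolog TC013108 (1.54), for TC015380 (2.50), for TC000921 (2.75) and for TC007675 (3.50). Neither TC000921 nor TC007675 had a read in male carcass, and their female carcass means were 0 and 0.0363 CPM. Their rises over the 0-5 hr stage on the same scale were 2.75 and 3.45. TC011658 (3.87), TC003085 (3.94), TC010421 (4.50), TC014688 (4.67) and the Larval serum protein 2 homolog TC005375 (6.03) were positive and also rose over that stage. Without S6, 21 of the 22 were still called in the same direction, the exception being TC001011. Without S11, 18 were, the exceptions being TC011481, TC001011, TC015380 and TC011658. Many of the 22 genes were named for a large difference from male carcass, a rise over 0-5 hr or no read in a group. The contrast contains these differences, so the calls of these genes are a description.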

How the results depend on the processing

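Of 79 named genes 67 were called, 60 of them in the same direction under every alternative that gave a value, a log2 threshold of 2 included. DESeq2 left 31 genes without an adjusted p. At a log2 threshold of 2 the calls fell to 1285 genes higher in embryos (6-11 hr) than in male carcass, to 1081 higher in embryos (0-5 hr) than in female carcass and to 565 for the difference of the differences, which rose to 1717 at an adjusted p of 0.05. Leaving out 1 library gave 3417 to 3474 genes higher in embryos (6-11 hr), 4462 to 4657 higher in male carcass, 3139 to 3219 higher in embryos (0-5 hr), 4386 to 4426 higher in female carcass, and 706 to 1585 for the difference of the differences (1585 without S6). With library totals the 0-5 hr stage had 4481 higher and 3931 lower genes, so 53.3% of calls were higher in the embryo, against 41.7%. Small differences changed sign. With library totals TC009978 was 0.15 and TC010830 was 0.27. Leaving out 1 library gave -0.13 to 0.10 for TC010830, which was 0.22 without S6 and S11, and -0.087 to 0.17 for TC002415, which was -0.0062 with DESeq2. The causes were not tested. No paired analysis was possible because no replicate number is shared between the groups. Depth limits the low genes, since S6, the shallowest embryo library, held reads for 11946 genes and its 1 read was worth 0.0465 CPM.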
